A study of Mus musculus with 6 samples.

Results

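The comparison described is that of mSSC with iSSC, the multipotent and the intermediate cells of a study of mouse spermatogonial stem cells in culture. The means compared are those of 4 of the 6 Affymetrix arrays of the study, 2 of mSSC and 2 of iSSC, chosen by their titles. All 18194 genes with a value are covered. The remaining 2 arrays hold SSC, the spermatogonial stem cells that the other cells came from. They add to the shared estimate of the spread behind each p-value and to the choice of probe set, but enter neither mean. Their levels stand beside the others as a description, with no test of SSC against either type. All samples were cultured testicular cells of male ICR mice 3 to 5 days old, with no genetic change named in the labels. Clumps of SSC from early (0 to 1) or middle (9 to 10) passages were moved onto feeder layers of mitomycin-treated mouse embryonic fibroblasts. Flattened or ES-like colonies that appeared there were kept in GS medium or moved to serum-free KSR-mES media, and the cells of each type were picked by hand by their shape. The labels do not say which array came from which passage or medium, so passage, medium and cell type cannot be told apart. Nor do they say whether the 2 arrays of a type hold RNA of separate cultures or mice, and each p-value below therefore reflects only how far these samples differed, which may be technical spread.

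Spermatogonial stem cells keep the male germ line going by self-renewal, which depends on the growth factor Gdnf through its receptors Gfra1 and Ret, and on Fgf. In culture a few such cells can convert into cells that resemble embryonic stem cells and can form many tissues. Embryonic stem cells hold their state through a network of transcription factors around Pou5f1 (Oct4), Sox2 and Nanog, whose genes bind and activate one another.

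In mSSC most pluripotency genes were higher than in iSSC, and most germ line and macrophage genes were lower. Of 18194 genes 3117, or 17.1%, were called by limma at a Benjamini-Hochberg adjusted p under 0.05. There were 1370 genes called higher in mSSC, 7.53% of all genes, and 1747 called lower, 9.6% of all genes. At least 4-fold differences were seen for 489 of the higher and 551 of the lower genes, and at least 16-fold ones for 57 and 66. The median fold was 3.22 among genes called higher and 3.01 among those called lower, and the smallest called fold was 1.67. The split into higher and lower depends on the scaling: with every array's gene median set to 0, which shifts the median difference of all genes from -0.01 to 0.18 (log2), 1771 genes were called higher and 1340 lower. Leaving out iSSC replicate 1 or 2 took the count of calls to 604 or 771, and leaving out mSSC replicate 1 took it to 1954. A fit without an iSSC or mSSC array leaves 1 array of that type and takes its spread from the other types. The median SD between arrays was 0.139 in iSSC and 0.206 in mSSC (log2). Calls can therefore be lost in such a fit with little change in the difference itself. The counts of list members below are to be read against the shares of 7.53% and 9.6%.

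The iSSC arrays correlated with each other at r = 0.990 over all genes and the mSSC arrays at r = 0.972, while iSSC with mSSC arrays gave 0.904 to 0.919. The mSSC arrays differed more from each other: 1403 genes were over 2-fold apart between them, against 295 between the iSSC arrays. The ratio of 3' to 5' beta-actin control probe sets was 0.47 and 0.30 (log2) in iSSC and 0.61 and 0.12 in mSSC, so these values overlapped. Among the 1370 genes higher in mSSC, the SSC mean lay nearer to that of iSSC for 968 (70.7%), and among the 1747 lower genes for 1456 (83.3%). A level is called near background when both arrays of a type lie below that array's lower quartile of gene levels, 5.03 to 5.16 on these 4 arrays (log2). No fold is given for a single gene near background in one type, and its values, for some genes with the log2 difference, stand in place of one. Such a difference depends on the floor of the array. The counts by fold and the median folds above include such genes: 180 genes called higher were near background in iSSC alone, and 177 called lower in mSSC alone.

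**Figure D1:**
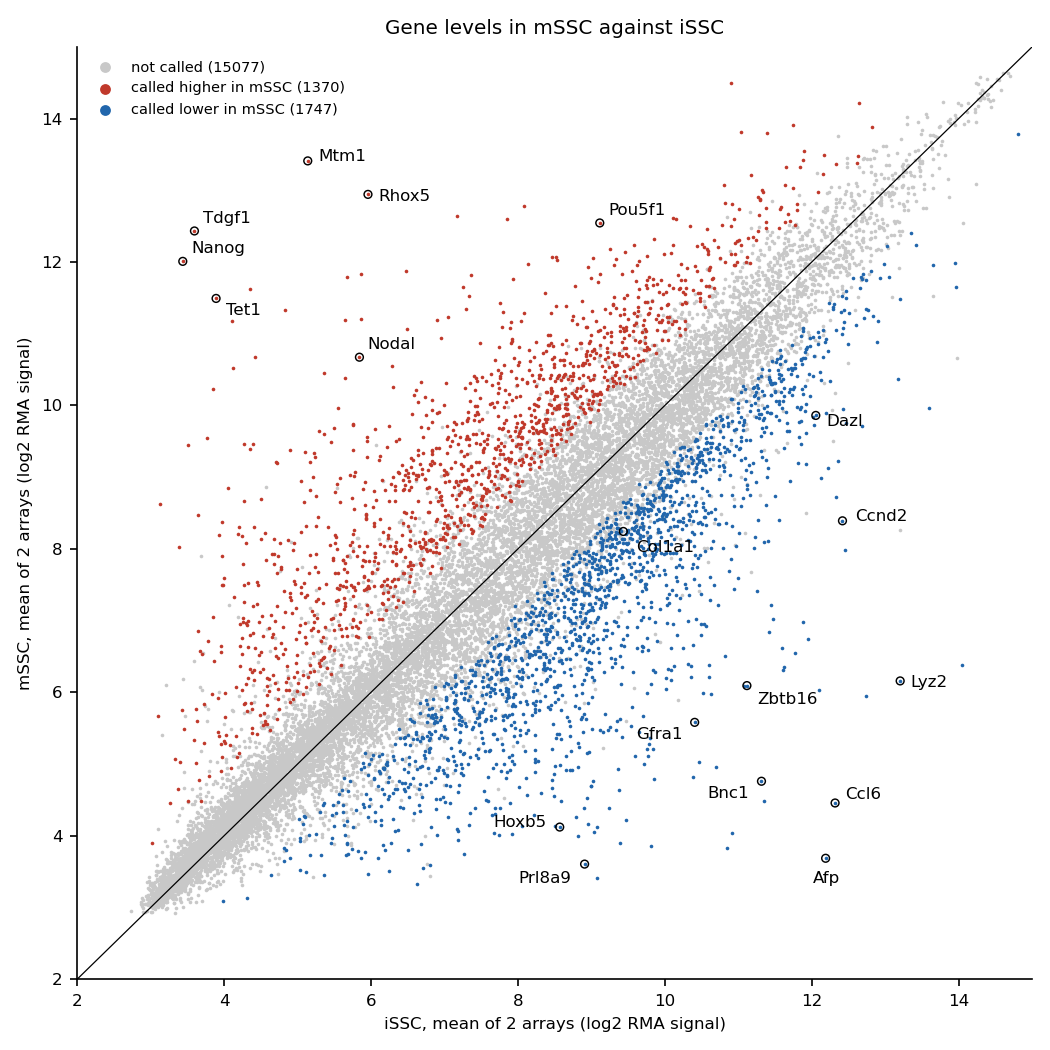
Mean log2 RMA signal of each of 18194 genes in iSSC (horizontal axis, 2 arrays) against mSSC (vertical axis, 2 arrays), with the 1370 genes called higher in mSSC in red, the 1747 called lower in blue and the others in grey. The line marks equal levels. Tdgf1, Nanog and Tet1 sit at the left edge, low in iSSC and high in mSSC, and Afp, Ccl6 and Lyz2 at the lower right, while Col1a1, which was not called, lies among the grey points.

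Most genes of the core pluripotency network rose. Of 22 measured members 17 were called higher in mSSC and 0 lower, with a median difference of 3.50 (log2) against -0.01 for all genes. The median level of the list was 7.53 and 7.78 on the iSSC arrays and 11.59 and 11.65 on the mSSC arrays, with 6.83 and 7.39 on the SSC arrays. Since fewer cells of a type and less RNA per cell look alike in RNA from many cells, these levels do not tell whether all cells or a part of them changed. With iSSC replicate 1 or 2 left out, 13 members were called in each case, and 16 and 15 without mSSC replicate 1 or 2.

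Within this network the members differed in where they started. Nanog, a homeodomain factor of the pluripotent state, was near background in iSSC at 3.62 and 3.25 and reached 11.58 and 12.44 in mSSC, a difference of 8.57 ± 0.33 (SE, n = 2 per type, limma adjusted p = 0.00026). Tdgf1, the Nodal co-receptor also known as Cripto, went from 3.56 and 3.63 to 12.63 and 12.23, the widest difference of all genes at 8.84 ± 0.30 (limma adjusted p = 0.00026). L1td1, an RNA-binding protein of embryonic stem cells, read 4.17 and 4.54 in iSSC and 11.32 and 11.92 in mSSC, 7.26 ± 0.28 apart. These 3 genes were thus at the floor of the array in iSSC, as they were in SSC, where Nanog read 3.42 and 3.29.

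Pou5f1 and Sox2 were already measured well above background in iSSC. Pou5f1 read 8.98 and 9.25 in iSSC and 12.31 and 12.79 in mSSC, which is 10.8-fold higher (difference 3.43 ± 0.44, limma adjusted p = 0.0055). In SSC it read 9.52 and 8.22, a range that spans the iSSC values. Sox2 stood at 7.37 and 8.48 in iSSC and 11.78 and 11.74 in mSSC, 14.3-fold higher (limma adjusted p = 0.0046). Mybl2, a factor of dividing cells, was 12.1-fold higher in mSSC, at 12.00 and 12.14 against 8.54 and 8.40. Lin28a, an RNA-binding protein shared by spermatogonia and stem cells, read 9.74 and 10.50 in iSSC and 11.66 and 11.04 in mSSC and missed the threshold (limma adjusted p = 0.053). The call of Pou5f1 was lost without iSSC replicate 1, and those of Nanog, Tdgf1, L1td1, Sox2 and Mybl2 held with each of the 6 arrays left out.

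Promoter letters are shown for the network because its factor Pou5f1 binds an octamer element. In RefSeq promoters of GRCm38.p6, running from 250 bases before to 50 after a gene's start, the letters ATGCAAA on either strand occurred in 4.56% of the promoters of the 14369 genes with an entry. They occurred in 4 of the 17 core pluripotency genes with an entry, Nanog, Sox2, Zfp42 and Zfp296. Related lists did not share this, with 1 of 18 naive pluripotency, 0 of 16 primed epiblast and 0 of 11 Nodal pathway genes. Lists above the share of all genes also included trophoblast and retinoic acid, each with 3 of 20. Among all genes called higher the share was 4.93%, and among those called lower 4.5%. The stretches below run in the direction of the gene, with the octamer letters in capitals and up to 30 bases on each side. They lie at chr6:122707384-122707450 on the plus strand, chr3:34649866-34649932 on the plus strand and chr8:43307158-43307224 on the minus strand.
Nanog: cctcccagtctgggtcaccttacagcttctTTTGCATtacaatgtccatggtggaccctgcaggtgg
Sox2: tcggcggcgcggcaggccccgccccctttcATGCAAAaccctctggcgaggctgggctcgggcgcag
Zfp42: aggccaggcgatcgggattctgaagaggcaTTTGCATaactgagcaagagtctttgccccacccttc
Nanog and Zfp42 hold the element read on the opposite strand to Sox2. A match describes these letters only, and binding was not measured.

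**Figure D2:**
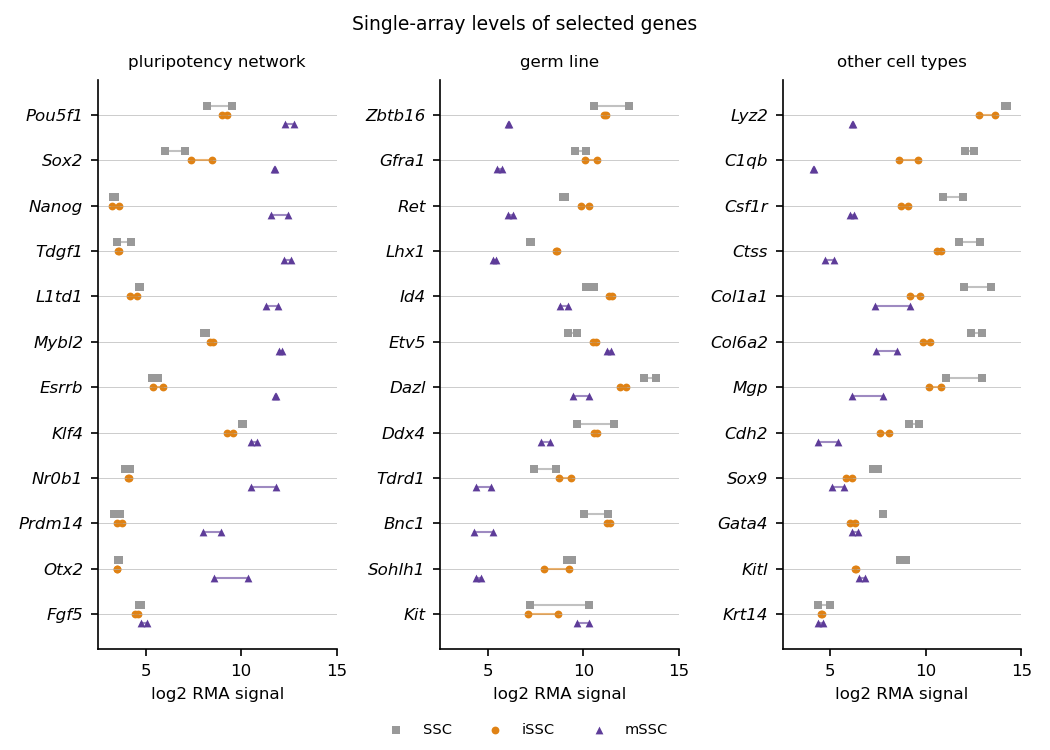
Log2 RMA signal of 36 genes on each of the 6 arrays (squares SSC, circles iSSC, triangles mSSC; a line joins the 2 arrays of a type), in panels for the pluripotency network, the germ line and markers of other cell types; some of the genes shown were chosen after their values were seen. Pou5f1, Sox2, Mybl2 and Klf4 start above 7 in iSSC while Nanog and Tdgf1 start below 4, and Etv5 and Kit are the germ line genes whose mSSC points do not lie to the left.

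Naive pluripotency, the state of cells of the early embryo before implantation, is marked by genes such as Esrrb and Prdm14. Of 29 measured naive genes 25 were called higher in mSSC and 1 lower, Stat3, with a median difference of 2.97. Esrrb, an orphan nuclear receptor, read 5.93 and 5.41 in iSSC and 11.83 and 11.75 in mSSC, 69.8-fold higher (limma adjusted p = 0.00026). Nr0b1, also known as Dax1, rose from near background at 4.06 and 4.14 to 10.52 and 11.83. Prdm14, a regulator of germ cell founding and of naive cells, rose from 3.76 and 3.51 to 7.98 and 8.97. Klf4, one of the reprogramming factors, was present in iSSC at 9.27 and 9.56 and was 2.42-fold higher in mSSC at 10.52 and 10.86, below the median difference of the list. Dppa3, a gene of early germ cells and the oocyte also called Stella, was 6.32-fold higher (6.99 and 6.16 against 9.85 and 8.63). With iSSC replicate 1 or 2 left out, 15 and 13 of the list were called higher, and Stat3 was not called. The call of Klf4 was also lost there and without mSSC replicate 2, and that of Dppa3 without either iSSC array.

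Genes of the primed state, that of the epiblast after implantation, went both ways. Of 21 measured genes 7 were called higher and 5 lower, with a median difference of 0.48. Otx2, a homeobox factor of the epiblast and forebrain, rose from 3.53 and 3.49 to 10.35 and 8.56, a wide gap between the 2 mSSC arrays. Zic5, a zinc finger factor, rose from 3.45 and 3.32 to 8.62 and 7.43. Cldn6, a claudin of embryonic epithelia, was 15.8-fold higher (5.77 and 5.74 against 9.96 and 9.52). Fgf5, the usual marker of primed cells, stayed near background in both types, at 4.43 and 4.58 in iSSC and 5.09 and 4.74 in mSSC (limma adjusted p = 0.28). Among the members called lower, Pou3f1 and Sox3 are also genes of spermatogonia, and 19 of the 21 genes stand in another list too. Leaving out iSSC replicate 1 or 2 gave 4 genes higher in each case and 2 and 1 lower, and leaving out mSSC replicate 1 gave 4 higher. The median difference was 0.15 without mSSC replicate 1, 1.01 without mSSC replicate 2 and -0.33 over the brighter genes alone.

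The Nodal pathway held 2 of the 15 widest increases, Tdgf1 and Lefty2. Of 19 measured members 8 were called higher and 0 lower, with a median difference of 0.32, and 11 members were not called. Nodal, the ligand, read 6.04 and 5.64 in iSSC and 10.58 and 10.76 in mSSC, 28.5-fold higher (limma adjusted p = 0.00082). Its inhibitor and target Lefty1 was 8.76-fold higher, at 10.06 and 9.68 against 6.67 and 6.81. Lefty2, the second such inhibitor, rose from near background at 3.94 and 3.60 to 9.45 and 9.65. Leaving out either iSSC array gave 5 members called higher, leaving out either SSC array gave 2 called lower, and the median was 0.74 without mSSC replicate 2. Calls of Nodal, Lefty1 and Lefty2 held in all 6 fits with an array left out.

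Most germ line genes fell. Of 39 measured genes of germ cells and of the piRNA pathway, which silences transposons in the germ line, 27 were called lower in mSSC and 4 higher, with a median difference of -2.19. Both mSSC arrays lay below both iSSC arrays for 29 of the 39, against 33.2% of all genes. Tex101, a surface protein of germ cells, read 12.23 and 11.54 in iSSC and 6.58 and 7.39 in mSSC, 29.8-fold lower (difference -4.90 ± 0.35, limma adjusted p = 0.0013). Bnc1, a zinc finger factor of spermatogonia and keratinocytes, was 94.2-fold lower (11.39 and 11.25 against 4.28 and 5.24). Piwil4, the nuclear Piwi protein that guides DNA methylation of transposons, fell from 7.28 and 7.10 to 4.38 and 3.50, near background. Ddx25, a testis RNA helicase, was 5.95-fold lower (10.62 and 10.34 against 8.15 and 7.67).

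Dazl and Ddx4, both widely used as germ cell markers, fell and stayed above background. Dazl, a germ cell RNA-binding protein, read 11.91 and 12.21 in iSSC and 9.43 and 10.29 in mSSC, 4.58-fold lower (limma adjusted p = 0.011). Ddx4, the Vasa helicase, was 6.11-fold lower, at 10.69 and 10.56 against 8.23 and 7.80 (limma adjusted p = 0.029). The members called higher were Rnf17, Prdm1, Hormad1 and Tfap2c, the last of which is a factor of early germ cells and of trophoblast and went from 6.71 and 5.98 to 10.25 and 8.77. When iSSC replicate 1 or 2 was left out, 10 and 16 members were called lower and 0 higher, and 2 were called higher without mSSC replicate 2. The calls of Dazl and Tfap2c were lost without either iSSC array, and that of Ddx4 without any one of the iSSC and mSSC arrays, while its difference kept between -2.83 and -2.39.

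An E-box stood in many of these promoters. The letters CACGTG occurred in 14 of the 31 germ line and piRNA genes with a RefSeq promoter entry, or 45.2%, against 10.3% of all genes with one, and in 9 of 29 meiosis genes (31.0%). Lists above the share of all genes also included lysosome with 11 of 33 (33.3%), Polycomb with 7 of 29 (24.1%), cholesterol synthesis with 4 of 17 (23.5%) and Hox with 4 of 19 (21.1%). Among all genes called higher the share was 11.2%, and among those called lower 12.5%, near that of all genes. The 4 stretches below, from genes called lower, run in the direction of the gene with the E-box in capitals. They lie at chr19:56826168-56826233, chr6:49395454-49395519 and chr3:40708748-40708813 on the plus strand and at chr13:112652304-112652369 on the minus strand of GRCm38.p6.
Tdrd1: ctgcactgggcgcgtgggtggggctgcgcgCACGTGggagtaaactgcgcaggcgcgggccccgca
Stk31: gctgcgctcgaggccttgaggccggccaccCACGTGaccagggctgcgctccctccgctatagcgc
Slc25a31: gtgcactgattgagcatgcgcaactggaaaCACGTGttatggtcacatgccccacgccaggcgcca
Ddx4: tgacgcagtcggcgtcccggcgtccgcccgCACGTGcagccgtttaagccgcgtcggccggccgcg
The E-box reads the same on both strands. The difference between mSSC and iSSC was -4.27 for Tdrd1, -3.69 for Stk31, -3.10 for Slc25a31 and -2.61 for Ddx4 (log2). Binding to it was not measured.

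The genes of undifferentiated spermatogonia split into a larger group that fell and a few that rose. Of 41 measured members 19 were called lower and 5 higher, with a median difference of -0.96. Zbtb16, also called Plzf, a transcription factor needed for stem cell self-renewal, read 11.07 and 11.17 in iSSC and 6.07 and 6.11 in mSSC, 32.5-fold lower (limma adjusted p = 0.0036). Gfra1, the Gdnf receptor, was 28.4-fold lower (10.09 and 10.72 against 5.45 and 5.71). Its signalling partner Ret was 15.1-fold lower (10.28 and 9.89 against 6.04 and 6.30). Id4, an inhibitor of helix-loop-helix factors that marks stem cells, was 5.27-fold lower and was still measured at 8.78 and 9.22 in mSSC. Members that were higher, such as Cdh1 and Utf1, are also genes of pluripotent cells.

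About as many of the genes that respond to Gdnf and Fgf in spermatogonia fell as did not pass the test. Of 31 measured members, Gfra1 and Ret themselves among them, 16 were called lower and 0 higher, with a median difference of -1.11, and 23 of the 31 stand in another list too. The median was -1.79 without iSSC replicate 1 and -1.69 without mSSC replicate 2. Lhx1, a homeobox gene induced by Gdnf, was 9.50-fold lower (8.55 and 8.63 against 5.27 and 5.41). Pou3f1, another such factor, was 5.06-fold lower (10.95 and 10.92 against 8.78 and 8.42). Etv5, an Ets factor of this response that embryonic stem cells also express, went the other way without passing the test, at 10.52 and 10.66 in iSSC and 11.45 and 11.22 in mSSC (limma adjusted p = 0.092). Leaving out iSSC replicate 1 or 2 gave 7 and 9 lower members here and 10 and 12 in the list of undifferentiated spermatogonia, of which 2 were called higher there and 3 without either mSSC array. The calls of Zbtb16, Gfra1, Ret, Id4, Lhx1 and Pou3f1 held with each array left out.

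Later spermatogonia turn on Kit and genes that prepare meiosis. Of 20 genes of differentiating spermatogonia 6 were called lower and 4 higher. Sohlh1, which drives this step, fell from 9.22 and 7.95 to 4.36 and 4.61, near background. Dmrt1, a regulator of entry into meiosis, was 8.75-fold lower (12.15 and 12.10 against 8.49 and 9.50). Kit, the receptor that marks differentiating spermatogonia and is also found on embryonic stem cells, was not called (limma adjusted p = 0.22). It read 7.08 and 8.66 in iSSC and 9.66 and 10.28 in mSSC. The SSC arrays, which add to the shared estimate of the spread, lay furthest apart, at 7.18 and 10.31. Of 36 meiosis genes 8 were called lower and 2 higher, the latter below the share of all genes, with a median difference of -0.76. Brdt, a testis bromodomain protein, was 4.46-fold lower (7.70 and 7.33 against 5.79 and 4.93), with 2 of its 3 probe sets sharing the sign. Mlh3, a mismatch repair protein of crossovers, was 4.12-fold higher (6.23 and 6.27 against 8.26 and 8.32). Stra8, the retinoic acid target at the start of meiosis, read 7.29 and 11.30 on the 2 iSSC arrays, which bracket the mSSC values of 8.37 and 8.40.

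The meiosis count changed with the arrays used. Without iSSC replicate 1 or 2, 0 and 1 meiosis genes were called lower and 1 higher in each case, and without mSSC replicate 2 the lower count was 3 and the median difference -0.50. Genes of differentiating spermatogonia called higher numbered 0 without iSSC replicate 1 or 2 or without mSSC replicate 2, and 1 without mSSC replicate 1. The call of Brdt was lost without either iSSC array.

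**Figure D3:**
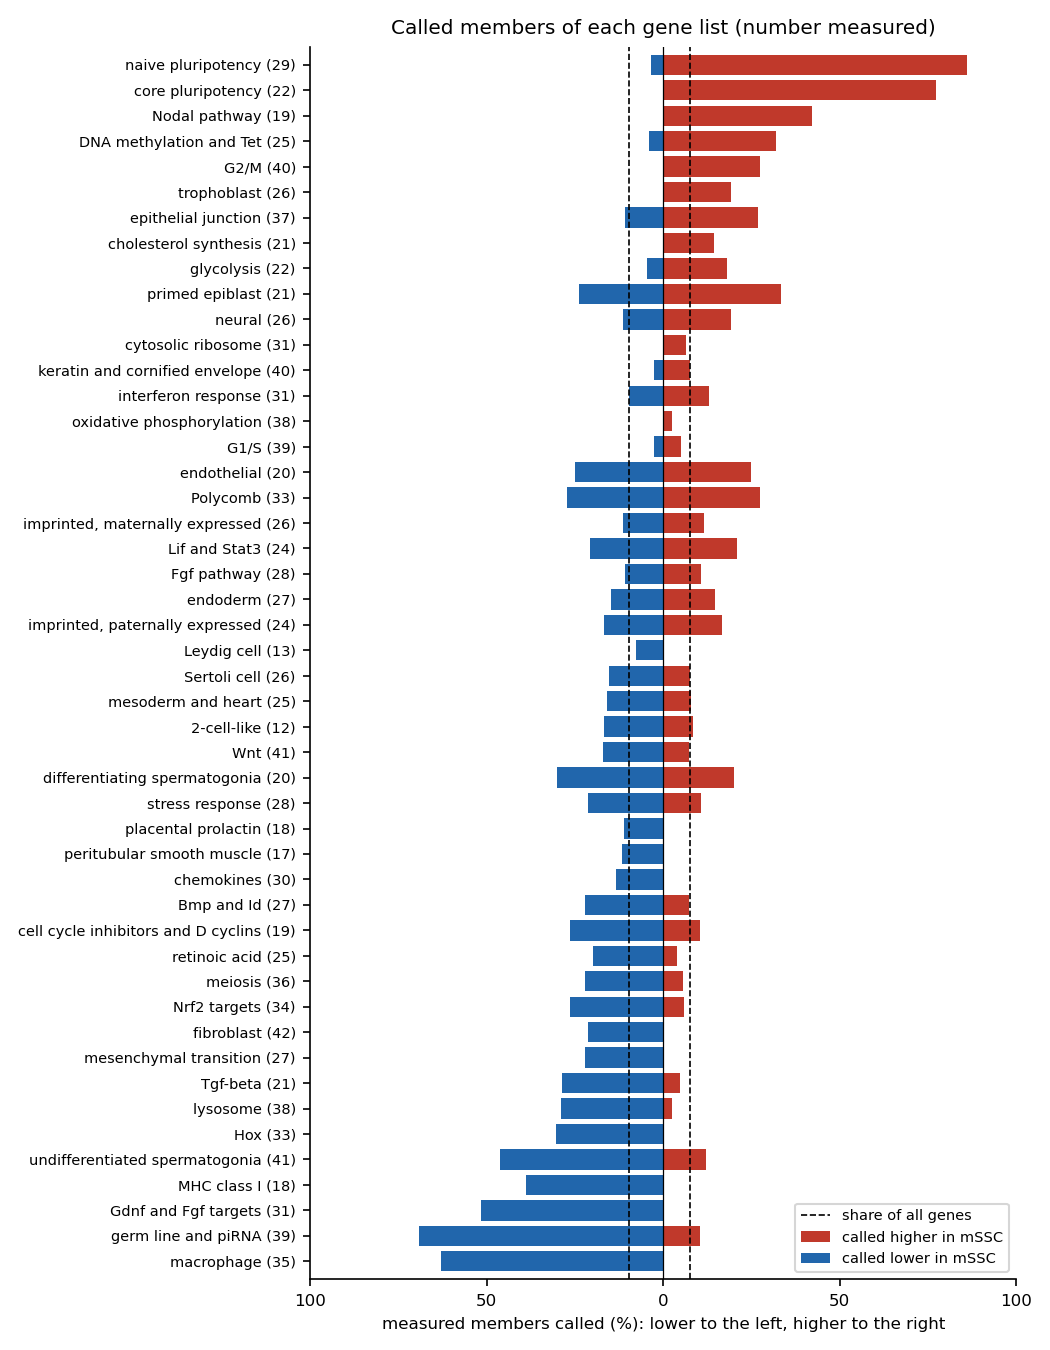
Share of the measured members of 48 gene lists called higher (red, to the right) and lower (blue, to the left) in mSSC, in percent, with the number measured in brackets and dashed lines at the shares of all genes, 7.53% and 9.6%. The naive and core pluripotency lists stand at the top, with 25 of 29 and 17 of 22 members higher, and the macrophage, germ line and Gdnf target lists at the bottom, with 22 of 35, 27 of 39 and 16 of 31 members lower.

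Most macrophage genes fell. Of 35 measured genes of macrophages, the phagocytes that live in the testis and in stromal cultures, 22 were called lower and 0 higher, with a median difference of -3.35. The median level of the list was 9.19 and 8.68 on the iSSC arrays and 5.24 and 5.14 on the mSSC arrays, with 11.56 and 10.44 on the SSC arrays. Lyz2, a lysozyme, read 13.61 and 12.80 in iSSC and 6.16 and 6.15 in mSSC, 132-fold lower (limma adjusted p = 0.00029), and its near-identical copy Lyz1, whose signal may not be separable, behaved alike at 14.28 and 13.80 against 5.95 and 6.81. C1qb, a complement subunit, fell from 9.57 and 8.60 to 4.11 and 4.14, and Csf1r, the receptor for the macrophage growth factor, was 6.77-fold lower (9.08 and 8.68 against 6.23 and 6.01). Ctss, a protease of antigen presentation, was 53.5-fold lower (10.80 and 10.60 against 5.20 and 4.72). The marker Ptprc fell from 5.82 and 5.52 to 3.84 and 3.96, near background (limma adjusted p = 0.039), with 1 of its 2 probe sets sharing the sign. Arg1 read 6.20 and 4.54 in iSSC and 4.71 and 3.82 in mSSC and was not called (limma adjusted p = 0.53). In mSSC 13 of the 35 genes were near background, and 2 were in iSSC. The call of Csf1r was lost without iSSC replicate 1, and those of Lyz1, Lyz2, C1qb and Ctss held in all 6 fits.

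Of the 15 widest decreases 4 were members of this list, Ccl6, Ccl9, Lyz2 and Ctss, with Lyz1 beside them. Ccl6 and Ccl9 are chemokines made by myeloid cells, and Ccl6 fell from 12.78 and 11.85 to 4.79 and 4.12. Of 30 chemokine genes 4 were called lower and 0 higher, Ccl3, Ccl6, Ccl9 and Cxcl12, while 9 were called lower without mSSC replicate 2. Between iSSC and mSSC the macrophage list fell together with the other decreases described here, and its part in them was not tested. The lists differed in SSC. Macrophage medians were 11.56 and 10.44 in SSC against 9.19 and 8.68 in iSSC, and germ line medians 9.29 and 9.99 against 9.91 and 9.63.

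Fibroblast genes were lower on average, with much spread between the mSSC arrays. Of 42 measured genes of fibroblasts and feeder cells 9 were called lower and 0 higher, with a median difference of -1.41. The median level was 9.98 and 10.24 in iSSC, 7.24 and 9.06 in mSSC, and 11.96 and 11.11 in SSC. Both mSSC arrays lay below both iSSC arrays for 29 of the 42. Without mSSC replicate 2, the one with the higher level, 26 genes were called lower, 2 without mSSC replicate 1, and 0 without either iSSC array, with medians of -2.43 and -0.90 without mSSC replicate 2 or 1. Mgp, a matrix protein, was 11.6-fold lower (10.18 and 10.80 against 6.16 and 7.73), and Col6a2, a collagen chain, 4.23-fold lower (9.84 and 10.20 against 7.39 and 8.49). Both calls, and that of Pdgfra, a growth factor receptor that was 6.55-fold lower, were lost without mSSC replicate 1 or without either iSSC array. Col1a1, the main collagen chain of fibroblasts, was not called, at 9.16 and 9.71 against 7.32 and 9.17 (limma adjusted p = 0.32), and neither was Thy1 (8.39 and 8.32 against 8.02 and 6.56). In mSSC 0 of the 42 genes were near background.

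Most Sertoli cell, Leydig cell and peritubular muscle markers did not pass the test. The median level of the Sertoli cell list was 6.26 and 6.36 in iSSC and 6.05 and 6.34 in mSSC, that of the Leydig cell list 8.40 and 6.69 against 6.28 and 6.46, and that of the peritubular muscle list 7.45 and 7.19 against 7.39 and 6.83. Of 26 Sertoli cell genes 4 were called lower and 2 higher, the latter Rhox5 and Tsx, which embryonic stem cells also express. Sox9 and Gata4, defining factors of Sertoli cells, read 5.82 and 6.12, and 6.30 and 6.03, in iSSC, and 5.71 and 5.10, and 6.11 and 6.44, in mSSC, and were not called. Of 13 Leydig cell genes 1 was called lower, Pdgfra, and of 17 peritubular muscle genes 2, Myl9 and Mylk. Acta2, the actin of smooth muscle and of activated fibroblasts, read 10.48 and 9.98 in iSSC and 7.49 and 8.65 in mSSC and was not called (limma adjusted p = 0.14). Star, the cholesterol carrier of Leydig cells, read 9.41 on one iSSC array and 6.74 on the other, with 6.84 and 6.46 in mSSC. Of 20 endothelial genes 5 were called higher and 5 lower. Pecam1, one of the higher ones, is also a surface protein of pluripotent cells. With iSSC replicate 1 or 2 left out, 0 endothelial genes were called higher and 1 and 2 lower, and 2 were called higher without mSSC replicate 2 and 2 lower without mSSC replicate 1. Sertoli cell genes called lower numbered 7 without either SSC array and 2 without iSSC replicate 1. The call of Pdgfra was lost without either iSSC array or mSSC replicate 1, that of Myl9 without any one of the 4 compared arrays and that of Mylk without iSSC replicate 1. Peritubular genes called lower thus numbered 0 without iSSC replicate 1 and 1 without any other single array of the 4, and 2 were called higher without mSSC replicate 2, where 2 Leydig cell genes were called lower. Leydig cell genes called lower numbered 0 without iSSC replicate 1 or mSSC replicate 1. The keratinocyte gene Krt14 was near background in both types, at 4.55 and 4.53 against 4.37 and 4.60.

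**Figure D4:**
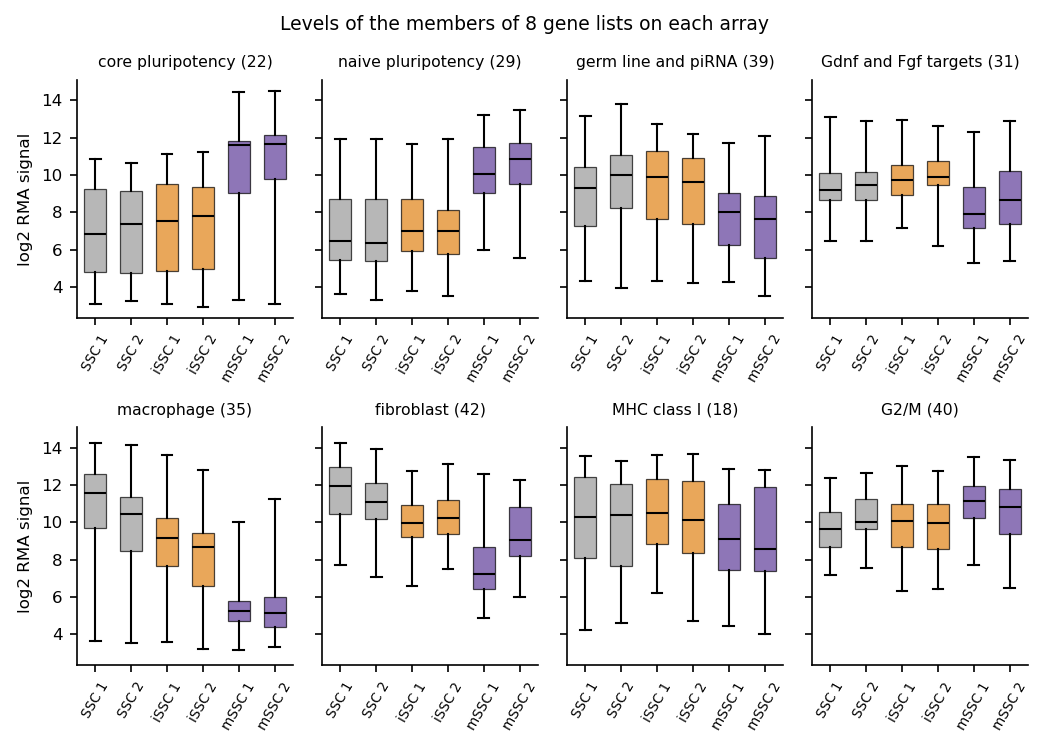
Log2 RMA signal of the members of 8 gene lists on each of the 6 arrays, with the number measured in brackets; the line in a box is the median, the box spans the quartiles and the whiskers the full range. Macrophage medians drop from 9.19 and 8.68 in iSSC to 5.24 and 5.14 in mSSC, while fibroblast medians differ between the 2 mSSC arrays, at 7.24 and 9.06.

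Epithelial junction genes were more often higher than lower. Of 37 measured members 10 were called higher and 4 lower, with a median difference of 0.42. Cdh1, or E-cadherin, the adhesion molecule of embryonic stem cell colonies, was 18.3-fold higher (7.68 and 7.00 against 11.52 and 11.54, limma adjusted p = 0.0017). Cldn7, a claudin of tight junctions, rose from near background at 5.13 and 4.27 to 9.48 and 8.94. Marveld2, or tricellulin, which seals corners between 3 cells, was 8.41-fold lower (8.96 and 9.06 against 6.26 and 5.62). Epcam, an adhesion molecule of spermatogonia and stem cells alike, was high in both, at 11.77 and 11.31 against 11.58 and 11.99. Of 27 mesenchymal genes 6 were called lower and 0 higher, with a median difference of -1.12. Cdh2, or N-cadherin, was 7.80-fold lower (7.59 and 8.10 against 4.34 and 5.42). Foxc2, a forkhead factor of mesenchyme and of a subset of spermatogonial stem cells, was 21.6-fold lower (10.26 and 9.34 against 5.78 and 4.96). Vim, or vimentin, was high in both and not called, at 12.74 and 13.15 against 12.32 and 12.02.

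The mesenchymal count shares 15 of its 27 genes with other lists, the fibroblast list among them. The median difference of the list was -1.69 without mSSC replicate 2, -0.64 without mSSC replicate 1 and -0.67 without iSSC replicate 2. The count was 11 without mSSC replicate 2, 2 and 1 without iSSC replicate 1 or 2 and 4 without mSSC replicate 1, and that of junction genes called higher was 4 without either iSSC array. The call of Cdh2 was lost without iSSC replicate 2.

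Genes of mitosis were more often higher, while few of DNA synthesis passed the test. Of 40 G2/M genes 11 were called higher and 0 lower, with a median difference of 0.93, and both mSSC arrays lay above both iSSC arrays for 29 of them, against 29.6% of all genes. Hmmr, a spindle protein, was 9.93-fold higher (7.73 and 7.83 against 11.34 and 10.84, limma adjusted p = 0.0013), though SSC also stood above iSSC at 9.19 and 9.34. Top2a, the topoisomerase that untangles chromosomes, was 3.01-fold higher (11.35 and 11.25 against 13.11 and 12.66). Of 39 G1/S genes 2 were called higher, Gins2 and Pola1, and 1 lower, E2f1, with a median difference of 0.19. For E2f1 2 of 3 probe sets shared the sign, and with the mean of probe sets 0 G1/S genes were called lower. Pola1, the catalytic subunit of the polymerase that starts DNA strands, was 11.8-fold higher (6.51 and 6.66 against 10.10 and 10.19), but its second probe set did not share the sign.

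The G2/M count was 3 and 1 without iSSC replicate 1 or 2, 6 without mSSC replicate 1, and 17 without either SSC array, where G1/S genes called higher numbered 4. E2f1, which was 2.20-fold lower, lost its call without either iSSC array or mSSC replicate 2, and Top2a without either iSSC array.

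Some brakes of the cell cycle fell in mSSC, and so did a D cyclin. Of 19 cell cycle inhibitors and D cyclins 5 were called lower and 2 higher. Ccnd2, the D cyclin that spermatogonia use, was 16.3-fold lower (12.20 and 12.64 against 7.79 and 8.99, limma adjusted p = 0.0031). The 2 neighbouring inhibitors of the Ink4 locus were both lower: Cdkn2b 5.62-fold (10.07 and 10.76 against 7.56 and 8.28) and Cdkn2a 7.13-fold (7.98 and 9.20 against 5.10 and 6.40, limma adjusted p = 0.032). Cdkn1c, an imprinted inhibitor, was 3.23-fold lower, while Cdkn1b, or p27, was 2.70-fold higher (6.24 and 6.67 against 7.61 and 8.17). The call of Cdkn2a was lost without either iSSC array or mSSC replicate 1, that of Cdkn1b without either iSSC array or mSSC replicate 2, that of Cdkn2b without iSSC replicate 2 and that of Cdkn1c without either iSSC array. Without iSSC replicate 1 or 2 the lower count was 2 and 1, and without mSSC replicate 1 it was 3.

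Most metabolic genes did not pass the test. Shares called higher were 18.2% for glycolysis, 14.3% for cholesterol synthesis, 6.45% for ribosome and 2.63% for oxidative phosphorylation genes, against 7.53% of all genes. Of 22 glycolysis genes 4 were called higher and 1 lower, with a median difference of 0.58. Slc2a3, the high-affinity glucose transporter Glut3, was 6.87-fold higher (11.64 and 10.44 against 13.81 and 13.82), and Hk2, the first enzyme of the pathway, 2.48-fold higher (10.49 and 10.71 against 11.93 and 11.89). Pfkfb3, which makes the activator of phosphofructokinase, was 3.50-fold lower (8.02 and 8.59 against 6.54 and 6.45). Of 38 oxidative phosphorylation genes 1 was called, Cox7c, which was 5.67-fold higher (5.32 and 5.16 against 7.34 and 8.14), with a median difference of 0.05. Of 31 cytosolic ribosome genes 2 were called higher, Rpl12 and Rpl14, and of 21 cholesterol synthesis genes 3, Pmvk, Tm7sf2 and Ebp, with medians of 0.01 and -0.01. Counts of glycolysis genes called higher were 1 without either iSSC array and 2 without mSSC replicate 1, where the median difference was 0.29, against 0.94 without mSSC replicate 2, and no ribosome, cholesterol or oxidative phosphorylation gene was called without an iSSC array. The call of Pfkfb3 was lost without any one of the 4 arrays and those of Hk2 and Cox7c without either iSSC array.

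Enzymes and cofactors of DNA methylation included some of the widest increases. Of 25 measured members 8 were called higher and 1 lower, Mbd2, with a median difference of 0.83. Tet1, which oxidises methylcytosine, rose from 3.73 and 4.05, near background, to 11.62 and 11.37, a difference of 7.60 ± 0.22 (limma adjusted p = 0.00026). Dnmt3l, the cofactor of new methylation in germ cells and the embryo, was 62.8-fold higher (6.09 and 5.63 against 12.42 and 11.25). Zfp57, which keeps methylation at imprinted genes, was 5.51-fold higher (5.72 and 5.78 against 8.40 and 8.03). Apobec3, a cytidine deaminase that restricts retroviruses, was 4.77-fold higher (8.56 and 8.74 against 11.27 and 10.55). Leaving out iSSC replicate 1 or 2 gave 3 and 4 members called higher, and Apobec3 was not called without iSSC replicate 1.

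Polycomb genes, which silence developmental genes through histone marks, went both ways. Of 33 measured members 9 were called higher and 9 lower, with a median difference of 0.40. The ones that were higher include Suz12, a core subunit of Polycomb complex PRC2, 7.41-fold (8.38 and 9.18 against 11.63 and 11.71), and its partners Mtf2, 3.71-fold (11.01 and 10.83 against 12.65 and 12.97), and Epop, 4.29-fold (7.32 and 7.71 against 9.69 and 9.55). Suz12 and Mtf2 also stood above iSSC in SSC, at 10.24 and 10.66, and 12.48 and 12.13. Phc1, a subunit of the PRC1 complex, was 3.43-fold higher (10.51 and 10.38 against 12.44 and 12.00). Paralogs went in opposite ways: Ezh2, Cbx7, Phf19 and Phc1 were called higher and Ezh1, Cbx2, Phf1 and Phc2 lower, a set of pairs picked after the values were seen. Without iSSC replicate 1 or 2, 3 and 2 members were called higher and 0 lower, and without mSSC replicate 1 or 2 the lower count was 5 and 4. The median difference was 0.15 without iSSC replicate 1 and 0.13 without mSSC replicate 1. With array medians set to 0 the split was 12 higher and 6 lower. Calls of Phc1 (without either iSSC array) and of Mtf2 (without iSSC replicate 2) were lost, while those of Suz12, Epop, Tet1, Dnmt3l and Zfp57 held.

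**Figure D5:**
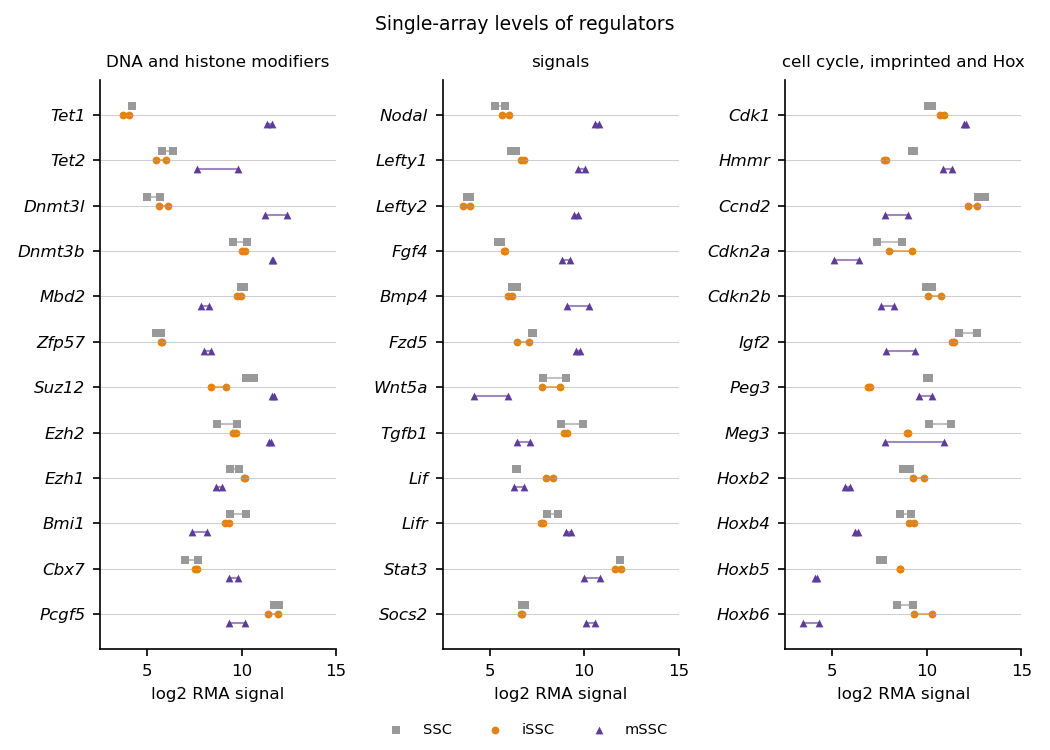
Log2 RMA signal of 36 regulators on each of the 6 arrays (squares SSC, circles iSSC, triangles mSSC; a line joins the 2 arrays of a type), in panels for DNA and histone modifiers, signalling genes, and cell cycle, imprinted and Hox genes; some were chosen after their values were seen. Tet1, Dnmt3l, Nodal and Lefty2 lie to the right in mSSC and Ccnd2 and the Hoxb genes to the left, while Peg3 and Suz12 are lowest in iSSC and the 2 mSSC values of Meg3 lie far apart.

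Imprinted genes, expressed from one parental copy, changed singly and not as a class. Of 24 paternally expressed genes 4 were called higher and 4 lower, and of 26 maternally expressed genes 3 and 3. Peg3, a paternally expressed zinc finger gene, was 7.95-fold higher in mSSC (6.96 and 6.87 against 10.25 and 9.56, limma adjusted p = 0.0022), with SSC at 10.09 and 9.98, so the level was lowest in iSSC. Ppp1r9a, a maternally expressed neural protein, followed the same order, at 5.49 and 5.35 in iSSC, 7.90 and 8.70 in mSSC and 7.48 and 7.05 in SSC. Igf2, the fetal growth factor, was 6.83-fold lower (11.44 and 11.33 against 7.83 and 9.39, limma adjusted p = 0.019). Phlda2, a maternally expressed brake on placental growth, was 5.22-fold higher (6.77 and 6.84 against 9.18 and 9.19), and Dlk1, a Notch-related membrane protein, 3.91-fold lower. Meg3, a maternally expressed long RNA next to Dlk1, read 7.80 on one mSSC array and 10.92 on the other, around the iSSC values of 8.93 and 9.01.

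Calls of Peg3, Ppp1r9a and Phlda2 held in all 6 fits with an array left out. That of Igf2 was lost without either iSSC array, and that of Dlk1 without any one array other than mSSC replicate 2. The counts of paternally expressed genes were 1 higher without either iSSC array and 1 or 2 lower, and those of maternally expressed genes 2 higher and 0 lower there, while 5 were higher without mSSC replicate 1.

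Ligands and receptors of several pathways changed. Fgf4, the growth factor that embryonic stem cells secrete, was 9.47-fold higher (5.76 and 5.79 against 8.81 and 9.23, limma adjusted p = 0.0012), and 3 of 28 Fgf pathway genes were called higher and 3 lower. Dusp6, a phosphatase that is induced by Fgf signals, was 3.72-fold lower (11.65 and 12.03 against 9.23 and 10.66, limma adjusted p = 0.041), and its call was lost without any one array other than mSSC replicate 2. No member of the Fgf list was called lower without either iSSC array or without mSSC replicate 1. With quantile normalization or with array medians set to 0, no gene of the Fgf list was called lower. Bmp4, a ligand that acts on germ cell founding and stem cells, was 12.2-fold higher (6.16 and 5.95 against 9.09 and 10.24). Its relative Bmp6 was 3.61-fold lower, and the inhibitor Smad6 4.13-fold lower (8.78 and 8.68 against 6.47 and 6.89), among 6 lower and 2 higher of 27 Bmp and Id genes, a lower count that was 1 and 3 without iSSC replicate 1 or 2. Calls of Bmp6 and Smad6 were lost without iSSC replicate 1.

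Tgf-beta and Wnt components were more often lower. Of 21 Tgf-beta genes 6 were called lower and 1 higher, with a median difference of -1.19. Tgfb1, the ligand, was 4.67-fold lower (9.11 and 8.93 against 7.15 and 6.45), and Tgfbr2, its receptor, 12.4-fold lower (at least 10.10 on both iSSC arrays against 5.73 and 8.12), where 1 of 3 probe sets had the opposite sign. Of 41 Wnt genes 7 were called lower and 3 higher. The receptor Fzd5 was 7.51-fold higher (6.46 and 7.09 against 9.57 and 9.80), and Tcf7l1, the repressing Tcf factor of embryonic stem cells, 3.84-fold higher (8.27 and 8.61 against 10.73 and 10.03). The receptor Fzd2 was 2.71-fold lower and the secreted Wnt binder Sfrp2 4.52-fold lower (9.28 and 10.30 against 7.85 and 7.38).

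Those lower counts changed with the arrays used: without iSSC replicate 1 or 2, 1 and 0 genes of each list were called lower, and 3 Tgf-beta genes without mSSC replicate 1 and 10 without mSSC replicate 2, with medians of -0.59 and -1.87. Tgf-beta genes called higher numbered 2 without either SSC array and 0 without any one of the 4 others, and Wnt genes called higher 5 without either SSC array and 1 without either iSSC array. The calls of Tgfbr2, Tcf7l1, Fzd2 and Tgfb1 were lost without either iSSC array, that of Tgfb1 also without mSSC replicate 2, and that of Sfrp2 without iSSC replicate 2 or mSSC replicate 2. The call of Fzd5 held.

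The Lif pathway, which sustains mouse embryonic stem cells through Stat3, had 5 of 24 genes higher and 5 lower. Tfcp2l1, a naive factor downstream of Stat3, was 23.8-fold higher (6.72 and 6.27 against 10.66 and 11.47), and Socs2, a cytokine signal inhibitor, 12.5-fold higher (6.70 and 6.67 against 10.07 and 10.59). The ligand Lif was 3.06-fold lower (7.96 and 8.34 against 6.28 and 6.79), and the kinase Jak1 3.56-fold lower (11.51 and 11.39 against 9.71 and 9.53). Without either iSSC array 2 genes were called higher and 0 lower, Lif and Jak1 among those lost, while Tfcp2l1 and Socs2 were called in all 6 fits.

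Hox genes, the factors of body position, fell mostly in one cluster. Of 33 measured Hox genes 10 were called lower and 0 higher, and 8 of the 10 belong to the Hoxb cluster. Hoxb5 fell from 8.58 and 8.56 to 4.17 and 4.07 (difference -4.45 ± 0.20, limma adjusted p = 0.00034), and Hoxb6 from 9.34 and 10.29 to 4.28 and 3.43, both near background in mSSC. Hoxb2 was 13.6-fold lower (9.24 and 9.86 against 5.65 and 5.93) and Hoxb4 7.40-fold lower (9.05 and 9.29 against 6.37 and 6.20). In SSC Hoxb4 read 9.16 and 8.56. Leaving out iSSC replicate 1 or 2 gave 6 and 5 called Hox genes, and these 4 were called in all 6 fits. Of 25 retinoic acid genes 5 were called lower and 1 higher, 3 of the 5 being Hoxb genes, and Aldh1a1, which makes retinoic acid, fell from 11.67 and 10.01 to 3.75 and 3.90.

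The lists of the 3 germ layers had medians between 0.01 and 0.13, with wide changes in single genes. Of 27 endoderm genes 4 were called higher and 4 lower. Afp, the fetal serum protein of yolk sac and liver, had the widest decrease of all genes, from 12.61 and 11.77 to 3.74 and 3.63 (difference -8.50 ± 0.35, limma adjusted p = 0.00026), with SSC at 10.40 and 10.99 and 4 of its 5 probe sets lower. Lama1, a basement membrane laminin, was 13.8-fold higher (4.97 and 5.44 against 8.73 and 9.27). Of 26 neural genes 5 were called higher and 3 lower. Zic1, a zinc finger factor of the neural plate, fell from 10.76 and 11.07 to 3.50 and 4.56, opposite to its relative Zic5 above. Of 25 mesoderm genes 2 were called higher and 4 lower, among the latter Foxf1, a forkhead factor of lateral mesoderm, which fell from 9.59 and 8.88 to 4.61 and 4.16. Leaving out iSSC replicate 1 or 2 gave 1 endoderm gene higher in each case, 1 and 2 neural genes higher and 1 lower, and 1 mesoderm gene higher and 2 lower, while 2 endoderm genes were higher without either mSSC array, 2 neural genes without mSSC replicate 1 and 1 mesoderm gene without either mSSC array. Afp, Lama1, Zic1 and Foxf1 were called in all 6 fits.

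Of 26 trophoblast genes 5 were called higher and 0 lower, and those 5 (Tfap2c, Krt8, Bmp4, Sox2 and Peg10) are not specific to trophoblast. The placental prolactin genes were near background in mSSC for 17 of 18. Prl8a9 and Prl8a2 were nevertheless measured in iSSC, at 8.71 and 9.11 and at 9.50 and 8.57, and in mSSC were near background, at 3.57 and 3.64 and at 3.84 and 4.28. In SSC Prl8a9 read 5.24 and 3.31, both below its iSSC values. These genes are related members of a family, and the signal may not belong to one of them alone. The call of Prl8a2 was lost without iSSC replicate 1, and the count of trophoblast genes was 2 without either iSSC array. Keratin and cornified envelope genes gave 3 of 40 higher and 1 lower, and 2-cell-like genes, of the stage when the embryo's genome starts, 1 of 12 higher and 2 lower. Without either iSSC array 1 keratin gene was called higher and 0 lower, Krt8, Krt17 and Crct1 being lost, and 0 2-cell-like genes were higher and 1 lower. Of the 2-cell-like genes 2 were called higher and 1 lower without mSSC replicate 1, and 2 keratin genes were called lower without either SSC array.

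Antigen presentation genes were lower in part. Of 18 MHC class I genes and helpers 7 were called lower and 0 higher, with a median difference of -1.32. Erap1, which trims peptides for presentation, was 9.72-fold lower (9.41 and 9.39 against 6.24 and 6.00, limma adjusted p = 0.0013). H2-K1, a classical class I heavy chain, was 2.54-fold lower (12.49 and 12.37 against 10.84 and 11.33), and signals of its near-identical relatives may be mixed in. Only 1 gene was called without iSSC replicate 1, without iSSC replicate 2 or without mSSC replicate 1, and H2-K1 was lost in each of these. Of 31 interferon genes 4 were called higher and 3 lower, the latter at the share of all genes, with Oas2, a sensor of double-stranded RNA, 7.69-fold higher (7.54 and 7.33 against 9.69 and 11.06) and Gbp2, a GTPase induced by interferon gamma, 7.99-fold lower (10.10 and 9.41 against 7.17 and 6.34). Calls of Oas2 were lost without either iSSC array and that of Gbp2 without iSSC replicate 1. Interferon genes called higher numbered 0 without either iSSC array and 2 without mSSC replicate 2, and those called lower 6 without either SSC array, 0 and 1 without iSSC replicate 1 or 2 and 2 without mSSC replicate 1.

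Lysosome and antioxidant genes were lower in part. Of 38 lysosome genes 11 were called lower and 1 higher, with a median difference of -0.84. Naglu, a lysosomal glycosidase, was 5.17-fold lower (7.96 and 8.19 against 5.47 and 5.94), and Ctsd, the protease cathepsin D, 3.00-fold lower (12.88 and 12.80 against 10.98 and 11.52). Macrophages are rich in these enzymes, and the macrophage list falls alongside, but a link between the lists was not tested. Of 34 Nrf2 targets 9 were called lower and 2 higher. Gclc, the rate-limiting enzyme of glutathione synthesis, was 5.22-fold lower (11.64 and 12.06 against 9.33 and 9.60), and Gsta4, a glutathione transferase, 3.13-fold higher (12.11 and 11.70 against 13.43 and 13.67). Of 28 stress genes 6 were called lower and 3 higher, Asns, which makes asparagine, being 4.01-fold higher (11.03 and 10.61 against 12.72 and 12.93). Without iSSC replicate 1 or 2 the lower counts were 1 and 2 for lysosome, 0 and 2 for Nrf2 and 0 and 0 for stress genes, and without mSSC replicate 1 they were 7 and 2 for the first 2 lists, with a lysosome median of -0.52. Naglu, Ctsd, Gclc and Gsta4 lost their calls without either iSSC array, and Gclc also without mSSC replicate 1.

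Other genes among the 15 widest increases are Mtm1, Rhox5 and Apela, of which Rhox5 is in the Sertoli cell list above. Mtm1, the lipid phosphatase myotubularin, was 309-fold higher (4.67 and 5.60 against 13.44 and 13.38, limma adjusted p = 0.00057), with SSC at 6.90 and 5.94. Rhox5, an X-linked homeobox gene of Sertoli cells and stem cells, was 127-fold higher (6.23 and 5.68 against 12.82 and 13.07), while its neighbours Rhox6 and Rhox9 were not called. Apela, a peptide hormone of embryonic stem cells, read 5.12 and 4.53 in iSSC and 11.49 and 11.18 in mSSC. Lrrc34, Mymx (a muscle fusion peptide) and 1700019D03Rik were near background in iSSC and between 9.94 and 11.10 in mSSC.

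Among the widest decreases outside the lists were Ctla2a, Ctla2b, Mageb3 and Clca3a1. Ctla2a and Ctla2b, near-identical protease inhibitor genes whose signals may be shared, read 12.65 and 12.83, and 11.31 and 11.39, in iSSC, and 4.71 and 7.19, and 3.96 and 5.01, in mSSC. Mageb3, a cancer-testis gene, fell from 9.38 and 8.77 to 3.15 and 3.67. All 30 of the widest changes kept their calls with each of the 6 arrays left out.

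Probe sets with no gene name or with several were tested apart. Of 10143 such probe sets 258 were called, or 2.54%, with 149 higher in mSSC and 109 lower. This share cannot be set directly against that of named genes. Each named gene stood for its brightest probe set, while these were not picked by level and were adjusted among themselves. The widest increase was that of a probe set at 3.28 and 3.57 in iSSC and 10.98 and 12.42 in mSSC, and the widest decrease that of one at 12.55 and 12.53 against 4.86 and 6.54. Which transcripts these 2 probe sets measure is not known here.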

How the data were processed

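Total RNA of 6 cultured samples (2 each of SSC, iSSC and mSSC), extracted with Trizol, was amplified from 10 µg with NuGEN Ovation kits and hybridised to Affymetrix arrays, per the labels' protocols. The deposited values are log2 signals that the authors made with RMA (background subtraction, quantile normalization and summary of probes), per the submitters' processing notes, which name no version. Array medians of the 4 compared arrays lay between 5.83 and 5.86. Having only 2 arrays per type limits the precision.

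Among 34958 probe sets with 1 symbol, the one with the highest mean over the 6 arrays stood for each of 18194 genes; 10143 other probe sets were tested apart. A group means model over all 6 arrays was fitted with limma 3.58.1 in R 4.3.3 (moderated variances, 2-sided), with calls made where the p, adjusted by Benjamini and Hochberg across all 18194 genes, fell under 0.05. No filter on low values was applied. The fitting code was run on simulated data with planted changes, which checks the code and not the calls made here. Names, chromosomes and promoters came from RefSeq tables of GRCm38.p6, and 14369 genes had a promoter entry.

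The comparison, the 49 gene lists and the rule for named genes were chosen with earlier results of these data known. The rule takes the 15 widest increases and 15 widest decreases among called genes with both mSSC arrays on one side of both iSSC arrays, the up to 4 called members of a list with the lowest p (with up to 2 others where fewer are called) and a panel of marker genes, of which Nanos2 had no value. The panel genes Kitl, Sycp3, Wt1 and Xist, not described above, were not called (limma adjusted p = 0.41, 0.2, 0.067 and 0.93). Other genes, including some in the plots and those named only as called members of a list, were chosen after their values were seen. Settings tried were a replicate block, other arrays in the fit, other variance models, a filter on dim genes, different scalings, different choices of probe set, and stricter calls.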

Additional observations from a re-analysis of the deposited data

How the results depend on the processing

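Against 3117 calls (1370 higher, 1747 lower), leaving out 1 array at a time gave 604 to 3724 calls, 298 to 1601 of them higher and 306 to 2123 lower. The lowest count came without iSSC replicate 1 and the highest without either SSC array. Without either SSC array the fit is by construction that of the 4 compared arrays alone, since a lone SSC array adds no spread. A lone iSSC or mSSC array is assumed to vary like the other types. An unmoderated test gave 26 calls (11 higher, 15 lower), with 4263 genes at an unadjusted p under 0.05. A required change of 2-fold gave 483 calls (250 and 233), and an adjusted p under 0.01 gave 1006 (486 and 520). Counts under the other settings lay within 1.5 times the main count, from 2360 to 4221. Over all genes, 1808 called ones had several probe sets, and for 1363 of them all probe sets shared the sign. With the probe set of largest SD, 4 of the calls shared with the main fit had the opposite sign. Of the 177 called genes named by the rule 0 reversed under any setting. Among those not called, Hsd17b7, at -0.92, had 1.96 (limma adjusted p = 0.012) when the probe set with the largest SD stood for it. The cause was not tested. Replicate numbers are shared across the types, but the deviations of same-numbered iSSC and mSSC arrays correlated at 0.17, and those of SSC with iSSC and mSSC at 0.12 and 0.07, over 2 numbers only, so the numbers were not taken to pair the samples. With the replicate block 3175 genes were called (1374 and 1801), of which 2820 were shared. For probe sets without a single symbol it called 116 higher and 90 lower. With 2 arrays per type, small differences and genes near background could not be resolved.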

Other observations

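Called genes were spread over all chromosomes, with median differences between -0.07 and 0.07 (log2) on the autosomes and the X chromosome. The X chromosome had 11.8% of its 617 genes called higher and 9.24% lower, and chromosome 11, which carries the Hoxb cluster, 6.03% higher and 13.2% lower. Long genes were called more often: by quartile of gene span, from the shortest to the longest, 4.64%, 6.10%, 8.87% and 10.6% were higher in mSSC and 8.87%, 8.47%, 10.1% and 11.2% lower, with medians between -0.02 and -0.01 in each.

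Gene families were grouped by the stem of their symbol, a grouping made after the values were seen. The sets below were picked from many families for their high counts of called members. Of all genes 7.53% were called higher and 9.6% lower. The Hoxb and Cdkn sets overlap lists described above. Higher in mSSC were 6 of 16 Klf zinc finger factors, 4 of 8 Smc genes of cohesin and condensin complexes, 6 of 14 Snhg RNAs that host small nucleolar RNAs and 5 of 10 Naa genes of protein N-terminal acetylation. Lower in mSSC were 9 of 10 Hoxb genes, 6 of 14 Stx syntaxins of membrane fusion, 5 of 10 Cdkn genes, 4 of 11 Anxa annexins and 4 of 11 Irf factors of the interferon response. The Hoxb set here was formed by symbol stem and not from the Hox list, so its count differs from the one given above.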
